A study of Mus musculus with 24 samples.

Results

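The genes that let pyruvate into the mitochondrion and turn it into acetyl-CoA were followed in primary mouse muscle cells. The 10 genes were chosen by name: the pyruvate dehydrogenase (PDH) subunits Pdha1, Pdhb and Dlat, the PDH kinases Pdk1, Pdk2, Pdk3 and Pdk4, the PDH phosphatase Pdp1, and the mitochondrial pyruvate carrier subunits Mpc1 and Mpc2. Each was read from the transcript cluster (the set of array probes assigned to a locus) whose only gene symbol was that gene, taking the cluster with the highest mean where there were several. Of the 10 genes, 9 were measured among the 22180 genes tested, and Mpc2 was not analysed here.

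RNA was measured on 24 single-colour arrays in 4 groups of 6. The cells came from the quadriceps of ICR mice and were differentiated in culture. Control offspring had dams fed freely. Undernourished offspring had dams that, from day 12.5 of pregnancy, ate 50% of what matched control dams ate, and litters of both kinds were adjusted to 8 pups. Cells of both kinds were expanded in low-glucose medium with basic fibroblast growth factor and then kept in a standard differentiation medium, with 5.5 mM glucose and 2% serum, or overnight in a limited medium with 0.5 mM glucose, 1% serum, 1 mM glutamine and added carnitine (0.5 mM). The labels used here state no age for the offspring. The limited medium differed in glucose, glutamine, carnitine and serum at once, so their effects cannot be told apart. Within a maternal diet each culture number occurred once in each medium (control 5, 10, 11, 15, 16 and 24; undernourished 1, 4, 8, 9, 12 and 20). Nothing in the labels says what a number stands for (mouse, litter or culture flask). The p-values therefore reflect the variation among these samples, some of it possibly technical.

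As background, pyruvate made in the cytosol crosses the inner mitochondrial membrane through a carrier built from MPC1 and MPC2. The PDH complex then converts it irreversibly to acetyl-CoA. PDH kinases phosphorylate the E1 alpha subunit and switch the complex off, and PDH phosphatases switch it back on. In skeletal muscle PDK2 and PDK4 are known as the main kinase isoforms, and Pdk4 is known as a gene that fasting induces. The arrays report transcript levels, not phosphorylation or enzyme activity.

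The cultures were checked against markers of their labelled tissue. The mean log2 signal of 10 myotube genes was 10.7 to 11.5 over the 24 arrays. Their lowest array values were 5.58 for Myh2 and 5.26 for Mybpc2. For the others in the list they ran from 10.2 (Ckm) to 12.9 (Acta1), with the embryonic myosin gene Myh3 at 12.8. The mean of 6 fibroblast and collagen genes was 7.83 in control culture 16 and 7.98 in undernourished culture 20, against 5.51 to 6.63 in the other 10. The mean of 3 measured glial genes was 7.57 in culture 20 and 4.53 to 5.72 in the others. Not every listed gene was bright in any array. The highest array value was 11.8 for Col1a1, 10.7 for Col1a2, 9.67 for Col3a1 and 9.07 for Dcn. It was only 5.66 for Pdgfra and 4.51 for Lum, under the median gene at 6.02. Of the glial genes Cdh19 reached 10.4 and Sox10 8.03, but S100b only 5.17. Over both diets the medium changed 1 of 10 myotube genes (Ckm, higher), 1 of 6 satellite cell genes (Vcam1, lower), 1 of 3 tendon genes (Scx, higher) and 0 of 6 fibroblast genes at an adjusted p under 0.05. Of all genes tested, 6.84% changed at that threshold. In such bulk cultures fewer cells of a type and less RNA per cell cannot be told apart.

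In the limited medium Pdk2 was the only one of the 9 genes that passed the test, and it rose 1.37-fold. Pdk4 was higher by a like amount but varied far more between cultures, and Pdk1 and the phosphatase gene Pdp1 were lower without passing. The subunit genes Pdha1, Pdhb and Dlat were higher by 0.13 to 0.15 on the log2 scale without passing. The Mpc1 cluster, whose locus is in doubt, differed by 0.21 and Pdk3 by 0.03 on that scale, neither passing. Each value was tested with limma on log2 signal over all 24 arrays, with Benjamini-Hochberg adjustment over 22180 genes. At an adjusted p under 0.05 the medium changed 1517 of 22180 genes (6.84%) over both diets, so 1 called gene of 9 is a count close to the background. At an unadjusted p under 0.05 there were 5 of the 9 genes (Pdk1, Pdk2, Pdk4, Dlat and Pdp1), against 20.3% of all genes. The median difference, limited minus standard, was 0.13 for the 9 genes and 0.01 for all genes.

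**Figure D1:**
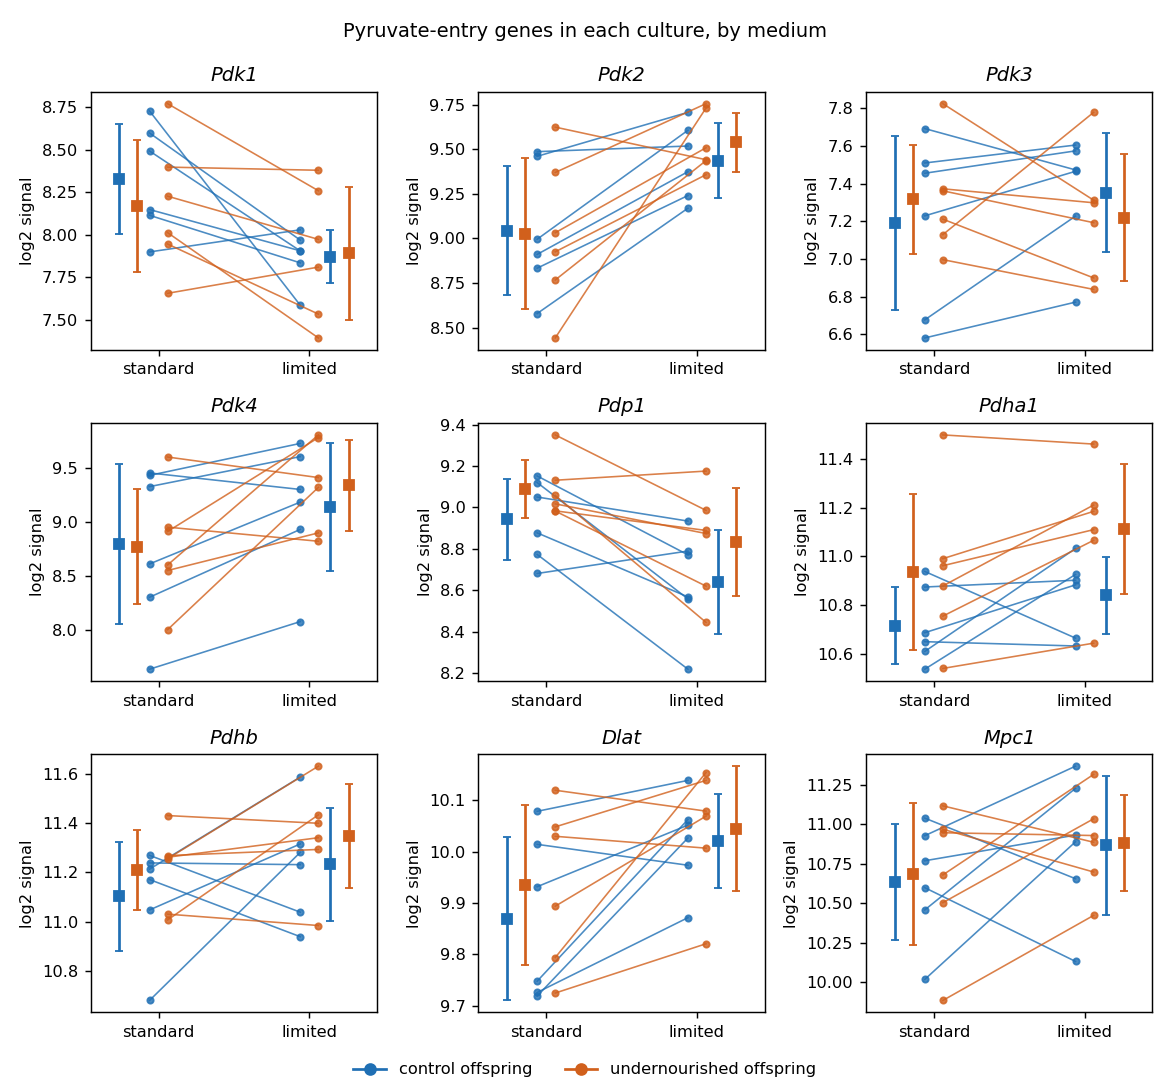
Log2 signal of each of the 9 genes (vertical axis) in the standard and limited medium (horizontal axis). Each line joins the arrays that carry 1 culture number, blue for control and orange for undernourished offspring, and squares with bars are group means ± SD (n = 6). Most Pdk2 lines rise and most Pdk1 and Pdp1 lines fall, while the groups overlap in every panel.

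Pdk2, the kinase isoform found in most tissues, is described first. In cells of control offspring its log2 signal ran from 8.58 to 9.49 with a median of 8.95 in the standard medium. In the limited medium the same cultures ran from 9.17 to 9.71 with a median of 9.45. In cells of undernourished offspring it ran from 8.44 to 9.62 with a median of 8.98 in the standard medium. In the limited medium those cultures ran from 9.36 to 9.75 with a median of 9.47. The upper end moved little and the lower end moved up, so that the SD fell from 0.36 to 0.21 in control and from 0.42 to 0.17 in undernourished cultures; the spread itself was not tested. The groups overlapped because control cultures 10 and 24 and undernourished cultures 8 and 9 were already between 9.37 and 9.62 in the standard medium.

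The Pdk2 difference over both diets was 0.45 ± 0.12 (SE; 95% interval 0.21 to 0.69; limma adjusted p = 0.0192), and 11 of 12 culture numbers were higher in the limited medium. The exception was undernourished culture 9, at -0.18, and the largest difference was 1.29 in undernourished culture 20. Culture 20 also held the highest means of the fibroblast and glial lists. Without cultures 16 and 20 the Pdk2 difference was 0.35 and the adjusted p 0.0519, and without control culture 5 the difference was 0.43 and the adjusted p 0.0556. Over the 22 alternatives tried the difference lay between 0.35 and 0.52 and the adjusted p between 0.00467 and 0.0556. The 4 group means ordered by medium, not by diet: the standard-medium groups differed from each other by 0.02 and the limited-medium groups by 0.10, both below their standard error of 0.17.

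Pdk4, the kinase isoform known for its rise in fasted muscle, had the widest spread of the 9 genes, with a range of 2.17 over the 24 arrays. In control cultures it ran from 7.64 to 9.46 (median 8.97) in the standard medium and from 8.08 to 9.73 (median 9.25) in the limited medium. In undernourished cultures it ran from 8.00 to 9.61 (median 8.76) in the standard medium and from 8.82 to 9.81 (median 9.37) in the limited medium. The difference over both diets was 0.46 ± 0.22 (SE; 95% interval 0.01 to 0.90; limma adjusted p = 0.231), higher in 9 of 12 culture numbers. Undernourished cultures 20 and 12 differed by 1.32 and 1.21, while cultures 5, 9 and 1 were lower in the limited medium by 0.13 to 0.19. Control culture 16 held the lowest Pdk4 in both media, at 7.64 and 8.08, and is a culture with a high mean of the fibroblast and collagen list. Without cultures 16 and 20 the Pdk4 difference was 0.37, with an adjusted p of 0.224.

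Pdk1, a kinase gene known as a target of the hypoxia-inducible factor, went the other way. In control cultures it ran from 7.90 to 8.73 (median 8.32) in the standard medium and from 7.59 to 8.03 (median 7.91) in the limited medium. In undernourished cultures it ran from 7.66 to 8.77 (median 8.12) in the standard medium and from 7.40 to 8.38 (median 7.89) in the limited medium. The difference over both diets was -0.37 ± 0.12 (SE; limma adjusted p = 0.0775) and was lower in 10 of 12 culture numbers, most in control culture 15, at -1.14. Pdk1 passed in 4 of 22 alternatives, among them without control culture 24 (adjusted p = 0.0496), after quantile normalization (0.0490) and without dim genes (0.0485), and the highest adjusted p of those 22 was 0.206. A second Pdk1 cluster was dim, at a mean of 3.78, and differed by -0.05 with an adjusted p of 0.841. Pdk3, a kinase isoform of narrower tissue distribution, differed by 0.03 ± 0.13 (SE; adjusted p = 0.930), higher in 6 and lower in 6 culture numbers. Its arrays ran from 6.58 to 7.83, and the lowest culture mean, 6.68, was again that of control culture 16.

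The 250 bases before the most upstream start of these genes in the RefSeq promoter table (build GRCm38.p6) are shown for Pdk2 and Pdk4, the kinase genes with the largest positive differences, and for Pdk1, the one with the largest negative difference. Sequences run 5′ to 3′ in the direction of the gene; capitals mark CACGTG and CCAAT, the latter as ATTGG where it lies on the other strand.
Pdk2, chr11:95041372-95041621, minus strand: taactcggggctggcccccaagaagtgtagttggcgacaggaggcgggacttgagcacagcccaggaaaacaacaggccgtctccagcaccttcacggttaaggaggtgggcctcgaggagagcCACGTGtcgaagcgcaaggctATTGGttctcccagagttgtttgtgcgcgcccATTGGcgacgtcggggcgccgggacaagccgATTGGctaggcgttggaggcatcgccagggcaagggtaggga
Pdk4, chr6:5496279-5496528, minus strand: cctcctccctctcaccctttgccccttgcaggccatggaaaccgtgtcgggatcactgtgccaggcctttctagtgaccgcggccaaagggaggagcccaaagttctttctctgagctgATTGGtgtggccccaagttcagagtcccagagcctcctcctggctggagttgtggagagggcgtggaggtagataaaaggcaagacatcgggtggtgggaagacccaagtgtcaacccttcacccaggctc
Pdk1, chr2:71872974-71873223, plus strand: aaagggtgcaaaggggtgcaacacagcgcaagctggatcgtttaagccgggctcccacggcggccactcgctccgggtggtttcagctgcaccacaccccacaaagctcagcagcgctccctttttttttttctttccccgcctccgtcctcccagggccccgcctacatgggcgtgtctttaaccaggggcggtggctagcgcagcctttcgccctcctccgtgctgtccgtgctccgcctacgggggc

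These letters and other motifs were searched on both strands of 32851 such stretches, and 9 of the 10 genes had one. Mpc2 was among them, but Pdp1 had no such stretch and was not searched. Counts over the 9 in this paragraph refer to these genes, not to the 9 measured ones. They use the most upstream start of each gene, whereas the shares of all stretches count every listed start, several for some genes. The E-box CACGTG occurred in 6.02% of all stretches and, of the 9, in that of Pdk2 alone, with its first base at -126 from the start. ACGTG, a form of the hypoxia-response core that the E-box holds on both strands, occurred in 16.6% of all stretches. Of the 9 it was in those of Pdk2, Pdk3 and Pdhb. The form GCGTG was not counted, and it stands in the stretches shown for Pdk1 and Pdk4. CCAAT occurred in 33.8% of all and in 6 of the 9, with 3 copies each in Pdk2 and Pdhb, and GGGCGG in 32.7% of all and in 6 of the 9. The nuclear receptor element AGGTCA (14.0% of all), the FOXO motif GTAAACA (3.17%) and the ATF4 motif TGATGCAA (0.791%) were in 0 of the 9, and AGGTCA lay before another start of Mpc1, at -244. A match describes letters and shows no binding.

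Pdp1, the phosphatase that opposes the kinases, was lower in the limited medium by an amount at the edge of the threshold. In control cultures it ran from 8.68 to 9.15 (median 8.96) in the standard medium and from 8.22 to 8.93 (median 8.67) in the limited medium. In undernourished cultures it ran from 8.98 to 9.35 (median 9.04) in the standard medium and from 8.44 to 9.18 (median 8.88) in the limited medium. The groups overlapped, although 10 of 12 culture numbers were lower. The difference over both diets was -0.28 ± 0.09 (SE; 95% interval -0.46 to -0.10), and the limma adjusted p of 0.050003 lay just above the threshold. Pdp1 passed in 6 of 22 alternatives, among them without control culture 11 (adjusted p = 0.0387), without undernourished culture 20 (0.0317), after quantile normalization (0.0336), without dim genes (0.0307) and with array weights (0.0482). With each array centred on its median the adjusted p was 0.135, the highest of the 22.

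The subunit genes moved little. Pdha1, which encodes the E1 alpha subunit that the kinases phosphorylate, differed by 0.15 ± 0.09 (SE; adjusted p = 0.389), higher in 9 of 12 culture numbers. Pdhb, the E1 beta subunit, differed by 0.13 ± 0.08 (SE; adjusted p = 0.389), higher in 7 of 12. Dlat, the E2 subunit that carries the acetyl group on lipoate, differed by 0.13 ± 0.06 (SE; 95% interval 0.01 to 0.25; adjusted p = 0.210), higher in 9 of 12. Dlat was the steadiest of the 9 genes: its 24 arrays spanned 0.44, and its SD within groups of 0.14 exceeded that of 12.6% of all genes, against 98.3% for Pdk4.

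Mpc1, a subunit of the carrier, has to be read with a caution about its cluster. The cluster with the highest mean, 10.8, stands in the order of cluster identifiers between Mok and Cinp, and 0 of its 9 neighbours with a known chromosome lie on the chromosome of Mpc1. The second Mpc1 cluster, with a mean of 7.02, has 10 of 10 neighbours on that chromosome. The first differed between media by 0.21 ± 0.15 (SE; adjusted p = 0.452), higher in 7 of 12 culture numbers, and ran from 9.89 to 11.4. The second differed by -0.01 ± 0.07 (SE; adjusted p = 0.973), higher in 6 of 12. Neither cluster passed the test, and which of them reports the carrier gene was not tested.

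**Figure D2:**
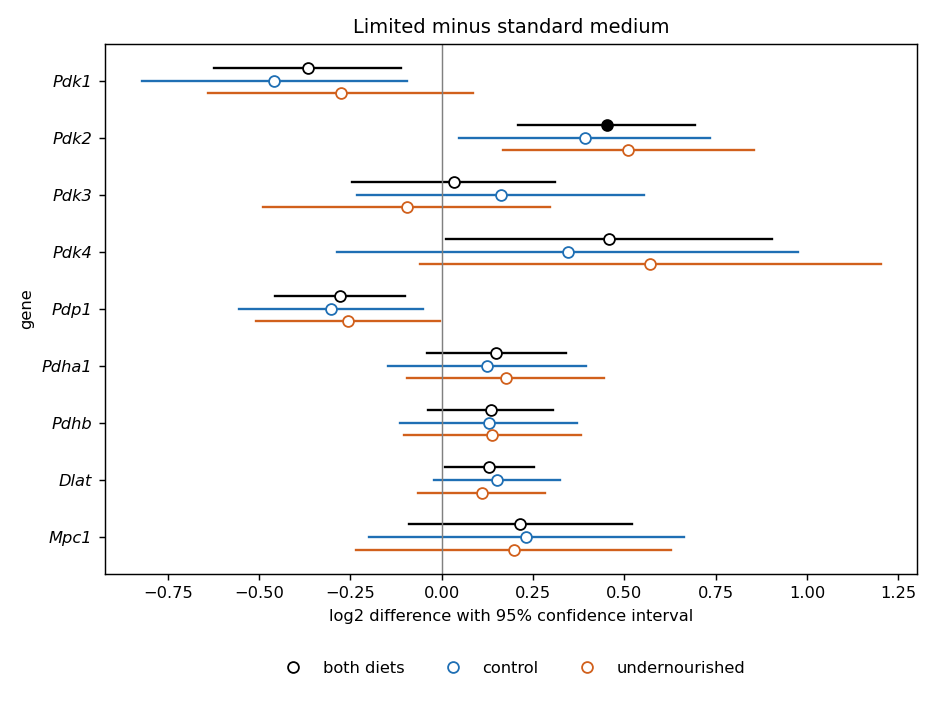
Limited minus standard medium for each of the 9 genes (vertical axis) as a log2 difference (horizontal axis), over both diets (black) and within control (blue) and undernourished (orange) offspring. Points are limma estimates, lines 95% confidence intervals, and a filled point an adjusted p under 0.05. Pdk2 over both diets, at 0.45, is the only filled point.

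Within a maternal diet 0 of the 9 genes passed. The limited medium changed 76 of 22180 genes (0.343%) in control cells and 324 (1.46%) in undernourished cells by the same limma test. At an unadjusted p under 0.05 there were 3 of the 9 in control cells (Pdk1, Pdk2 and Pdp1) and 2 of the 9 in undernourished cells (Pdk2 and Pdp1), against 13.1% and 13.4% of all genes. Pdk2 differed by 0.39 ± 0.17 (SE; adjusted p = 0.302) in control cells, higher in 6 of 6 culture numbers. In undernourished cells it differed by 0.51 ± 0.17 (SE; adjusted p = 0.132), higher in 5 of 6. Pdk4 differed by 0.34 ± 0.31 in control and 0.57 ± 0.31 in undernourished cells (SE; adjusted p = 0.683 and 0.440). Pdk1 differed by -0.46 ± 0.18 and -0.28 ± 0.18 (SE; adjusted p = 0.243 and 0.549).

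Whether the diets responded unequally to the medium was tested directly, and this contrast passed in 0 of the 9 and in 0 of 22180 genes (0%; 643 at an unadjusted p under 0.05). For Pdk2 the contrast (undernourished minus control response) was 0.12 ± 0.24 (SE; 95% interval -0.37 to 0.61). For Pdk4 it was 0.23 ± 0.43 (SE; 95% interval -0.67 to 1.12). The largest was that of Pdk3, at -0.26 ± 0.27 (SE; 95% interval -0.81 to 0.30; limma adjusted p = 0.9998): Pdk3 was higher in the limited medium in 5 of 6 control and lower in 5 of 6 undernourished culture numbers.

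**Figure D3:**
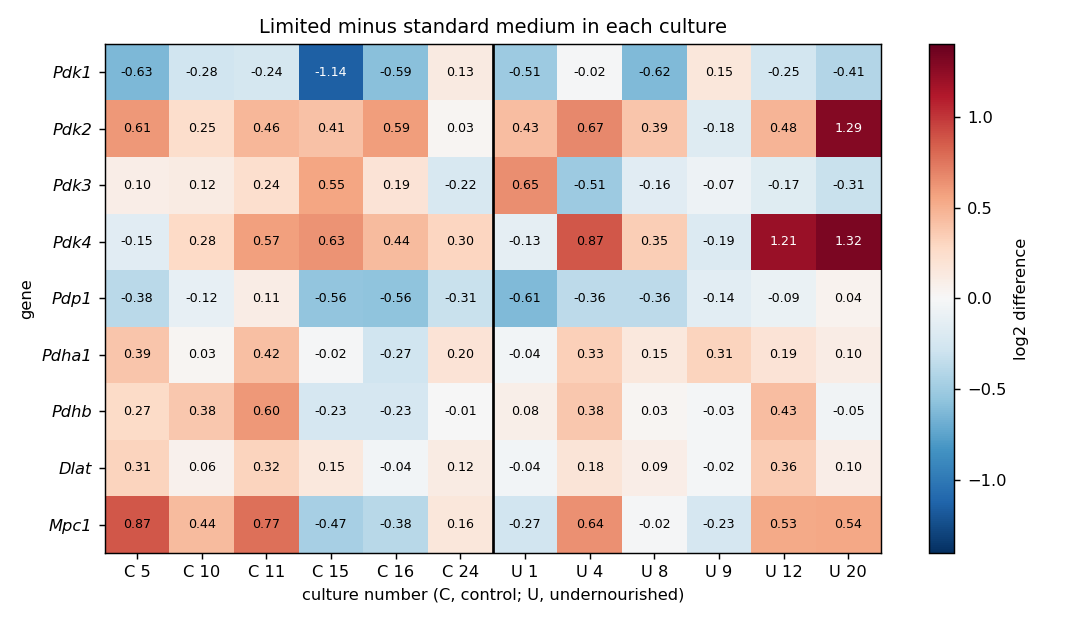
Log2 difference, limited minus standard medium (colour and printed number), for each of the 9 genes (rows) in each culture number (columns; C control, U undernourished). The Pdk2 row is positive except for U 9, at -0.18, the Pdk1 row negative except for C 24 and U 9, and the Mpc1 row holds both signs.

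The heat map also shows how the genes differed from culture to culture. Of the 36 pairs among the 9 genes, 0 had differences that correlated over the 12 culture numbers at a Benjamini-Hochberg adjusted permutation p under 0.05. The highest was Pdhb with Mpc1 (Pearson r = 0.81, permutation p = 0.00266, adjusted 0.0958; Spearman rho = 0.71, permutation p = 0.0129, adjusted 0.189), and r was 0.77 without the 2 cultures farthest from the Pdhb median. The Mpc1 values there are those of the brighter cluster, which has 0 of 9 neighbours on the chromosome of Mpc1. Pdk2 and Pdk4 gave r = 0.64 (permutation p = 0.0230, adjusted 0.132; Spearman rho = 0.59, permutation p = 0.0492, adjusted 0.295). Without the 2 cultures farthest from the Pdk2 median r was 0.17. Leaving out extreme Pdk2 values narrows their range and can by itself lower r, so this fall does not show what the relation rests on. Within diets r was -0.13 over 6 control and 0.78 over 6 undernourished culture numbers.

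Maternal diet was compared in each medium and over the means of the culture numbers. Of the 9 genes, 0 passed in any of these comparisons, and 0 of 22180 genes (0%) did, by limma. At an unadjusted p under 0.05 there were 697 genes in the standard medium, 1206 in the limited medium and 791 over both media. Pdha1 had the largest difference of the 9 in all 3 comparisons. In control cultures Pdha1 ran from 10.54 to 10.94 (median 10.67) in the standard medium and from 10.63 to 11.03 (median 10.89) in the limited medium. In undernourished cultures it ran from 10.54 to 11.50 (median 10.92) in the standard medium and from 10.64 to 11.46 (median 11.15) in the limited medium. The diets overlapped in both media. Undernourished culture 20 held the lowest Pdha1 of its groups, and culture 1 the highest, above every control culture.

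The Pdha1 difference, undernourished minus control, was 0.22 ± 0.13 in the standard medium and 0.27 ± 0.13 in the limited medium (SE; limma adjusted p = 0.9998 and 0.894). Over culture means it was 0.25 ± 0.11 (SE; 95% interval 0.01 to 0.49; limma adjusted p = 0.999), with an unadjusted exact permutation p of 0.0563 (two-sided, 6 against 6 culture means, smallest possible 0.00216). Pdp1 was higher in undernourished cells by 0.17 ± 0.10 and Pdhb by 0.11 ± 0.09 (SE; adjusted p = 0.999 for each). The kinase genes differed by -0.07 for Pdk1, 0.04 for Pdk2, -0.00362 for Pdk3 and 0.09 for Pdk4. For Pdk4 the 95% interval, -0.47 to 0.65, was the widest of the 9.

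**Figure D4:**
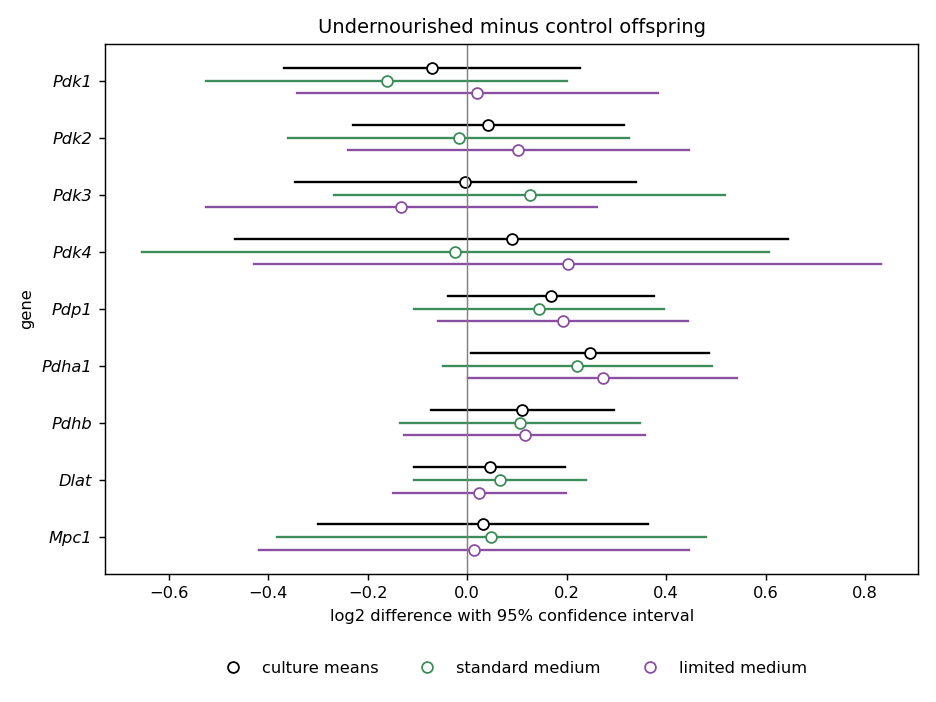
Undernourished minus control offspring for each of the 9 genes (vertical axis) as a log2 difference (horizontal axis), over culture means (black), in the standard medium (green) and in the limited medium (purple). Points are limma estimates, lines 95% confidence intervals, and open points did not pass. Pdha1, at 0.25 over culture means, has the largest difference, and the Pdk4 intervals are the widest.

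The rest of the complex did not pass either. Of 5 measured genes of the complex and carrier outside the 9, 0 passed in the medium comparison over both diets, and their median difference was 0.08. Among them Pdp2, the second phosphatase, differed by -0.19 ± 0.06 (SE; limma adjusted p = 0.0790), lower in 9 of 12 culture numbers, and Pdpr, the phosphatase regulatory subunit, by 0.16 ± 0.09 (SE; adjusted p = 0.316). Pdha2, also among these 5, was dim, at a mean of 4.13. Of 7 measured genes that supply lipoate, thiamine and coenzyme A, 0 passed, with a median difference of 0.02. Slc19a2, a thiamine transporter, differed by 0.15 ± 0.08, and Lias, the lipoate synthase, by 0.09 ± 0.07 (SE; adjusted p = 0.292 and 0.530).

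Of 8 genes of the sister 2-oxoacid dehydrogenase complexes, 2 rose and 0 fell, against 6.84% of all genes called in either direction. The list's median was -0.03. Bckdha, the E1 alpha subunit of the branched-chain complex and the counterpart of Pdha1, rose by 0.42 ± 0.08 (SE; limma adjusted p = 0.00365) and was higher in 12 of 12 culture numbers. Bckdk, the kinase that inhibits that complex, rose by 0.27 ± 0.07 (SE; adjusted p = 0.0235), higher in 10 of 12. Bckdk did not pass without control culture 5 (adjusted p = 0.0640), control culture 11 (0.0573), undernourished culture 12 (0.0623) or cultures 16 and 20 (0.0663).

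Of 14 genes for other sources and fates of pyruvate, 1 fell and 0 rose, with a median of 0.07 (6.84% of all genes were called). The gene that fell was Acly, which makes cytosolic acetyl-CoA from citrate, at -0.33 ± 0.08 (SE; limma adjusted p = 0.0114), lower in 11 of 12 culture numbers. Of 7 measured genes that fasting or fatty acids are known to induce with Pdk4 in muscle, 0 passed, and 3 of 7 were higher, with a median of -0.03. Angptl4, Acot1 and Ucp3 of this list were dim. Their highest group means were 5.09, 5.17 and 5.80, below the median gene at 6.02. Cpt1a, the liver-type carnitine palmitoyltransferase, differed by -0.30 ± 0.11 and the carnitine-acylcarnitine carrier Slc25a20 by 0.16 ± 0.13 (SE; adjusted p = 0.114 and 0.551).

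Of 14 transcription factors and coactivators known to act on Pdk genes, 2 rose and 2 fell, against 6.84% of all genes called. Their median difference was 0.13. Klf15, a factor induced by fasting and glucocorticoids, rose by 0.35 ± 0.08 (SE; limma adjusted p = 0.0113), higher in 9 of 12 culture numbers. Its group means, from 5.90 to 6.39, lay near the median gene at 6.02. Esrra, the estrogen-related receptor alpha, rose by 0.25 ± 0.06 (SE; adjusted p = 0.0121), higher in 10 of 12. The coactivator gene Ppargc1b fell by 0.53 ± 0.08 (SE; adjusted p = 0.000455), lower in 11 of 12. Hif1a, the hypoxia-inducible factor, fell by 0.25 ± 0.07 (SE; adjusted p = 0.0420), lower in 11 of 12, but passed in 8 of 22 alternatives. The highest adjusted p, 0.180, came with all clusters of the gene averaged, where the difference shrank to -0.16. Hif1a passed when control culture 5, control culture 24 or undernourished culture 9 was left out, and did not when any other culture number was. In undernourished cells alone, where 1.46% of all genes passed, Klf15 rose by 0.49 ± 0.12 and Ppargc1b fell by 0.60 ± 0.12 (SE; limma adjusted p = 0.0368 and 0.00969). They passed in 12 and 19 of 23 alternatives. Ppargc1b there did not pass without undernourished culture 1, 4 or 12, and Klf15 lost its call when control culture 10, 11 or 24 was left out, as it did without undernourished culture 1, 4, 9, 12 or 20. Without undernourished culture 4 the adjusted p was 0.194 for Klf15 and 0.0821 for Ppargc1b.

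**Figure D5:**
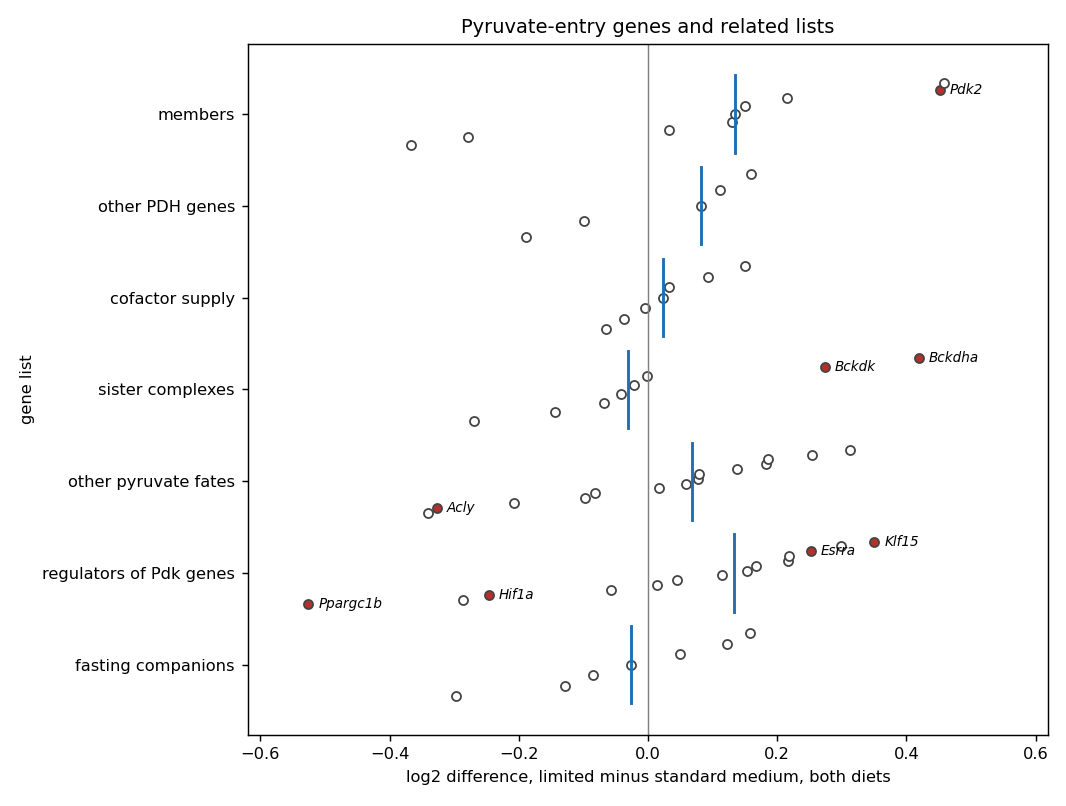
Log2 difference, limited minus standard medium over both diets (horizontal axis), for each measured gene of the 9 pyruvate-entry genes and of the 6 related lists (vertical axis). Filled red points have a limma adjusted p under 0.05 and are named, open points do not, and the blue bar is the list's median. The list of regulators holds 4 filled points, on both sides of 0. Of all genes tested, 6.84% had an adjusted p under 0.05.

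The genes most like each member were taken as the 3 with the highest Pearson correlation of log2 signal over the 24 arrays, among 10511 named genes at or above the median level. These arrays share groups and culture numbers, so the values only describe likeness. For every member the choice used arrays of both media, so it favours genes that differ between media as that member does. Pdk2 went with Coq8a (r = 0.89), Pink1 (0.86) and Ninj1 (0.85), and all 3 rose in the limited medium, which the choice favours because it used arrays of both media. They rose by 0.52 ± 0.14, 0.61 ± 0.11 and 0.35 ± 0.07 (SE; limma adjusted p = 0.0287, 0.00186 and 0.00443). Coq8a passed in 15 of 22 alternatives, failing when control culture 5 or 11 was left out and when undernourished culture 1, 4, 8, 12 or 20 was, and Pink1 and Ninj1 passed in 22 of 22. For deviations from group means the correlations with Pdk2 were 0.83, 0.76 and 0.73. Pdk1 went with Bnip3 (r = 0.88), a mitophagy receptor gene known as a hypoxia target, and with Zdhhc20 (0.86) and Ikbkg (0.83). Bnip3 differed by -0.40 ± 0.14 between media (SE; adjusted p = 0.0778), lower in 11 of 12 culture numbers. Ikbkg fell by 0.27 ± 0.08 (SE; adjusted p = 0.0472), also lower in 11 of 12, and passed in 8 of 22 alternatives. Its call was kept without undernourished culture 1 or 9 and lost without any other culture number.

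Pdk4 went with the calcium sensor gene Stim1 (r = 0.86), the small heat-shock gene Hspb7 (0.85) and Sdr39u1 (0.83), of which 0 passed in the medium comparison. Pdk3 went with Olfm1 (r = 0.81), Plcg2 (0.77) and Lmcd1 (0.74), and Pdp1 with Rnf141 (0.78), Cacng6 (0.78) and Metap2 (0.77). Rnf141 fell by 0.35 ± 0.10 (SE; adjusted p = 0.0353), lower in 11 of 12 culture numbers, and passed in 11 of 22 alternatives. Its call was kept without control culture 11, 15 or 24 or without undernourished culture 9, and lost without any other. The subunit genes went with Fam199x (r = 0.89), Ppp4r2 (0.86) and Mmgt1 (0.86) for Pdha1, with the fatty acid oxidation gene Echs1 (0.88), Prxl2c (0.85) and Srfbp1 (0.84) for Pdhb, and with Lancl1, the mitochondrial peroxiredoxin Prdx3 and Plpbp (0.85 each) for Dlat. The Mpc1 cluster went with Mipep (r = 0.86), the succinate dehydrogenase subunit Sdhd (0.86) and Med31 (0.86).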

How the data were processed

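Per the labels' protocols, Trizol-extracted total RNA received a biotin label (WT PLUS) before hybridisation to 24 arrays. The deposited log2 values were made by the authors with RMA in Affymetrix Expression Console, per the submitters' processing notes; tool versions and the build were not given in the sources used here, and no detection calls were used. The base of the logarithm is not stated and was read as 2 from the range of 1.69 to 14.1. Clusters were named through the platform annotation, with symbols updated through RefSeq. The 23521 clusters with 1 symbol gave 22180 genes, and dim genes were kept.

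limma 3.58.1 in R 4.3.3 (lmFit and eBayes) was fitted to 4 group means over 24 arrays, and to 6 against 6 culture means for diet over both media, two-sided, with a threshold of 0.05 on the Benjamini-Hochberg adjusted p; the procedure was tested on simulated data. Named genes were all members, every called gene of 6 related lists or otherwise the 2 with the largest medium difference, and the 3 genes most like each member. The members, lists and alternatives were chosen with earlier results of these data known. The number of arrays limits the precision.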

Additional observations from a re-analysis of the deposited data

How the results depend on the processing

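In the medium comparison over both diets, 1 of the 9 genes passed. The count was 3 at an adjusted p under 0.1, 3 after quantile normalization, 3 when genes dimmer than the median gene were dropped, 2 with array weights and 0 without cultures 16 and 20; leaving out each culture number in turn gave 0 (without control culture 5) to 2. With the culture number as a replicate block it was 4 (adjusted p = 0.0167 for Pdk1, 0.00467 for Pdk2, 0.0205 for Pdk4 and 0.0161 for Pdp1), and the replicate block gave 1 (Pdk2, 0.0349) for the medium in undernourished cells; it changed no other count of members. The numbers are not shown to pair the arrays: deviations of same-numbered arrays from their group means correlated at -0.05 (culture 9) to 0.56 (culture 20), although 20 of 24 arrays correlated best with their own number. No called member changed direction, and 19 of the 63 member results, all uncalled, changed sign under some alternative; the cause was not tested. Genes called over both diets numbered 1517, against 2325 at an adjusted p under 0.1, 2597 with the replicate block, 991 without control culture 5 and 996 without undernourished culture 4. In control cells 76 became 10 without control culture 5 and 551 with the block, and in undernourished cells 324 became 51 without undernourished culture 4, 59 with those groups fitted alone and 1007 with the block. In the diet comparisons and the medium-by-diet comparison 0 members passed under any alternative. With 6 arrays a group, the interval beside each difference limits what could be detected.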
